A study of Mus musculus with 24 samples.

Results

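The comparison described here is the interaction of Kat6a loss with culture condition in mouse neural stem and progenitor cells (NSPCs). For each gene, the difference between Kat6a-/- and Kat6a+/+ NSPCs under differentiating conditions was set against the same difference under proliferating conditions. A positive interaction means that the Kat6a-/- value, relative to Kat6a+/+, was higher after differentiation than during proliferation, and a negative one that it was lower. The members are 16 of the 24 libraries of the series, namely the 8 proliferating and 8 differentiating libraries whose labels read WT (Kat6a+/+) or HOM KO (Kat6a-/-), with 4 libraries in each of the 4 groups. Heterozygous libraries entered only an alternative fit.

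KAT6A is a histone acetyltransferase that works in a complex with BRPF1, ING4 or ING5 and MEAF6 and is needed for the expression of developmental control genes such as Hox and Tbx genes. NSPCs divide in the presence of FGF2 and EGF, and when these factors are withdrawn they leave the cell cycle and form neurons and glia. Proneural transcription factors drive this step, and Notch ligands on the differentiating cells hold their neighbours in the progenitor state. An interaction of genotype and condition picks out the genes whose dependence on KAT6A differs between these states.

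NSPCs had been isolated from the dorsal telencephalon, the source of the cerebral cortex, of C57BL/6 embryos at embryonic day 12.5. The null allele carries a deletion of internal exons that puts a stop codon into the region coding for the catalytic domain, and it is present in every cell from conception. Proliferating NSPCs were kept for 3 days in medium with FGF2 and EGF, and differentiating NSPCs for 3 days on poly-L-ornithine and laminin with fetal bovine serum and without the growth factors. The extraction kit differed between proliferating and differentiating cultures, and its effect cannot be told apart from that of the condition. It cancels from the interaction only if it was alike in both genotypes, which was not tested. During proliferation, the study saw floating colonies in Kat6a+/+ cultures, but few in Kat6a-/- cultures, whose cells attached to the plastic instead. This difference in growth form goes with genotype, and its part in the proliferating effects cannot be told apart from that of Kat6a loss itself. The study counted fewer βIII-tubulin-positive cells in Kat6a-/- cultures after differentiation. In bulk RNA, fewer cells of a type and less RNA per cell cannot be told apart, and this holds for each result below.

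Total counts per library ranged from 7826660 to 40838203, and from 7826660 to 9775640 in the proliferating Kat6a-/- group. Progenitor markers were present in each of the 16 libraries (Sox2, 245 to 501 CPM), whereas Aif1 and Csf1r, which mark microglia, did not reach 1 CPM in any. CPM are counts scaled to the effective library size. Gfap, an astrocyte filament, was at 0 to 0.538 CPM in proliferating Kat6a+/+ and 1.86 to 6.59 CPM in proliferating Kat6a-/- libraries. Differentiating replicates 1 to 4 had it at 642, 502, 342 and 706 in Kat6a+/+ and 146, 1897, 253 and 979 CPM in Kat6a-/- NSPCs. Replicate 2 stood apart from the rest of the differentiating Kat6a-/- group (correlation of log2 CPM with the others 0.957). Its summed astrocyte marker level was 20420 CPM, against 8919 to 12360 CPM in replicates 1, 3 and 4. Mesenchymal markers ran the other way, summing to 151 CPM in replicate 2 and to 604 to 931 CPM in the others, against 232 to 689 CPM in differentiating Kat6a+/+ NSPCs. The part of these differences in the results was not tested, and where leaving out replicate 2 moved the number of called genes of a list by over 1.5 times, both numbers are given. Y-linked reads were present in 3 of 4 Kat6a+/+ and 1 of 4 Kat6a-/- libraries in each condition. One embryo label used in both conditions belonged to a female library in the proliferating and a male library in the differentiating Kat6a+/+ group (replicate 1), and the litter number of Kat6a+/+ replicate 2 also differed between the conditions, as did its sex. Results are therefore given also without replicates 1 and 2 of both Kat6a+/+ groups, which leaves 2 libraries in each of these.

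The targeted gene was examined first. Kat6a (mm39 chr8:23349545-23433275) was at 396, 386, 402 and 373 in proliferating Kat6a+/+ and 391, 358, 341 and 338 CPM in proliferating Kat6a-/- NSPCs. Differentiating cultures had it at 291, 238, 258 and 283 in Kat6a+/+ and 158, 252, 161 and 185 CPM in Kat6a-/- NSPCs. The null transcript was thus still counted in all libraries, and since the counts cover the whole gene, they do not check the genotype. Its interaction was not called (log2 -0.39, SE 0.18, false discovery rate [FDR] 0.16), and without differentiating Kat6a-/- replicate 2 it was -0.49 (FDR 0.0074). Of the 8 genes of the complex, Ing4 alone had a called interaction (-0.43, SE 0.12, FDR 0.033), and it was called in 6 of the 16 fits that left out 1 library. Neither Brpf1 nor the Kat6a paralog Kat6b had a called interaction. Without differentiating Kat6a-/- replicate 2, 3 of the 8 were called.

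The effect of Kat6a loss differed between the conditions at 1565 of 13469 genes (11.6%, limma-voom, FDR under 0.05). The interaction was positive at 550 genes (4.08%) and negative at 1015 genes (7.54%), and its size exceeded 1 on the log2 scale at 817. This split depends on scaling. Positive interactions made up 35.1% of the calls with trimmed-mean scaling, 41.8% with relative log expression scaling and 22.2% with unscaled library totals, which moved the median interaction of all genes from -0.05 to -0.15. They made up 45.7% of the calls in a fit of all 24 libraries, 48.1% by DESeq2 and 49.4% without differentiating Kat6a-/- replicate 2. As to the effects themselves, 1212 genes (9.00%) were higher and 1100 (8.17%) lower in proliferating Kat6a-/- NSPCs, and 1820 (13.5%) were higher and 2207 (16.4%) lower in differentiating ones. Of the genes called under one condition and not the other, only a part had a called interaction: 26.6% of the 3179 called in differentiating NSPCs alone and 31.8% of the 1464 called in proliferating NSPCs alone. A missing call in one condition therefore did not by itself show a difference between the conditions.

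The 1565 genes fell into 5 classes. In 847 genes (54.1%), the effect was called in differentiating NSPCs only, and it was a fall in 595 and a rise in 252. In 465 genes (29.7%), it was called in proliferating NSPCs only, as a rise in 278 and a fall in 187. In 129 genes (8.24%), both effects were called with opposite signs, and in 48 (3.07%) with the same sign but unequal size. The remaining 76 (4.86%) had a called interaction and neither effect called. In the class called after differentiation only, the 95% interval of the proliferating effect lay within 1 log2 unit of 0 at 709 of the 847 genes, and in the class called during proliferation only, the same held for the differentiating effect at 398 of the 465. For the others, the interval in the second condition reached beyond 1 log2 unit. These others include Ahnak2, Emp3, Atg9b, Tchh, Mfng, Dll3, Insm1 and Col9a1, named below for large interactions. The proliferating interval of Emp3, for example, was -3.10 to 0.45 and that of Col9a1 0.47 to 3.31. They also include Tmem179, Filip1 and Tcim, named below for large proliferating effects. Without Kat6a+/+ replicates 1 and 2 of both conditions, 110 interactions were called, 87 of them in differentiating NSPCs only, 13 in proliferating NSPCs only and 5 opposite.

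**Figure D1:**
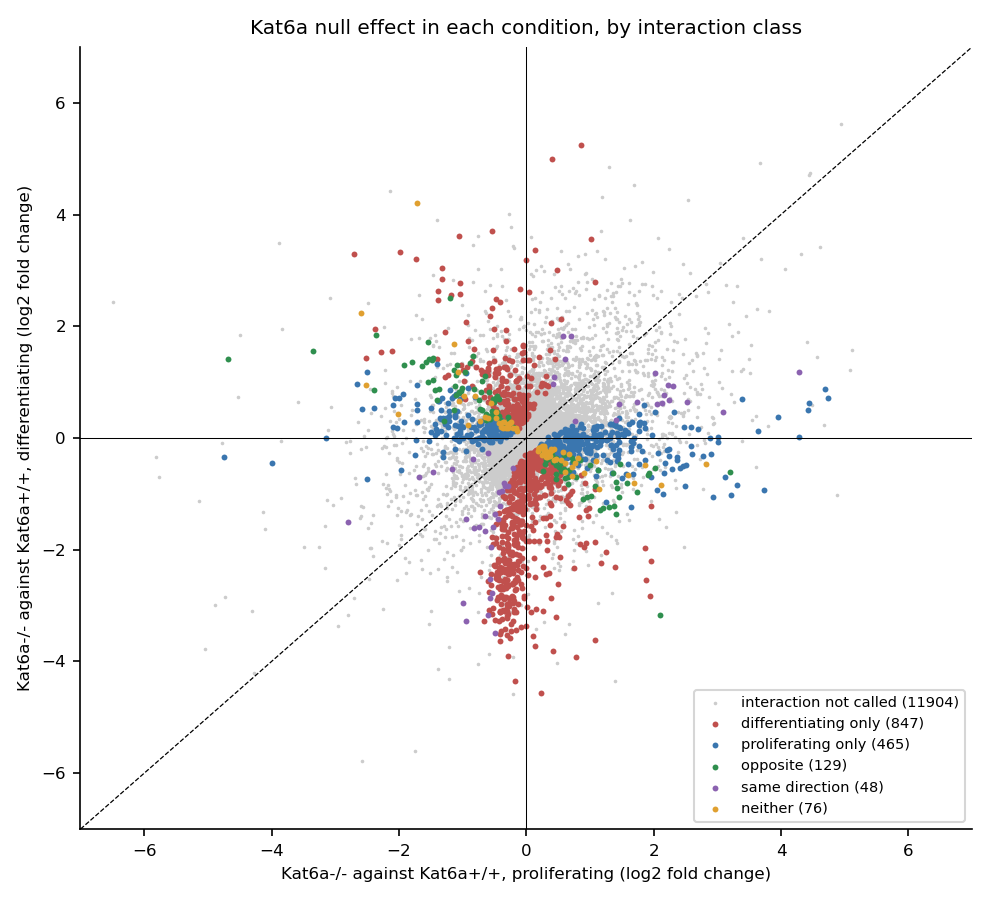
Log2 fold change of Kat6a-/- against Kat6a+/+ NSPCs under proliferating (x axis) and differentiating (y axis) conditions, one point for each of the 13469 genes tested, coloured by interaction class. The dashed line marks equal effects. The 847 genes called in differentiating NSPCs only run along the vertical axis, mostly below 0, the 465 called in proliferating NSPCs only along the horizontal axis, and the 129 opposite genes fill the upper left and lower right.

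Of the gene lists examined, G2 and mitosis had the most genes called in differentiating NSPCs only (37). All 38 genes of the G2 and mitosis list fell in differentiating Kat6a-/- NSPCs and none was called in proliferating ones, and the interaction was negative and called at 37 of the 38, against 7.54% of all genes tested. The median log2 effect of the list was -0.29 in proliferating and -2.84 in differentiating NSPCs, where the medians of all genes were 0.00 and -0.03. In the S phase and replication list, all 44 genes fell in differentiating and 3 in proliferating Kat6a-/- NSPCs. The interaction was negative and called at 32 of the 44, with a median of -1.32. The median effect of this list in proliferating NSPCs was -0.36. Missing calls do not show that these genes were unchanged during proliferation. The study reported lower expression of cell division genes in proliferating Kat6a-/- NSPCs as well, and slower growth of these cells.

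The summed level of the 38 G2 and mitosis genes was 7431, 6991, 7783 and 7220 in proliferating Kat6a+/+ and 6779, 6619, 6889 and 4198 CPM in proliferating Kat6a-/- NSPCs. Under differentiating conditions it was 2637, 2285, 2846 and 1648 in Kat6a+/+ and 365, 179, 335 and 666 CPM in Kat6a-/- NSPCs. The transcripts thus fell on differentiation in both genotypes, and further in Kat6a-/- NSPCs, with no overlap between the genotypes in either condition. Proliferating Kat6a-/- replicate 4 was the lowest library of its condition. Without it, 41 of the S phase genes and 37 of the G2 and mitosis genes had called interactions. Without Kat6a+/+ replicates 1 and 2 these counts were 1 and 5, with median interactions of -1.22 and -2.41 against -1.32 and -2.58 in the full set, and within the 2 litters with both genotypes in both conditions 24 and 34.

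Bub1b, a kinase of the spindle checkpoint, was at 170, 153, 171 and 176 in proliferating Kat6a+/+ and 151, 138, 153 and 98.6 CPM in Kat6a-/- NSPCs. Under differentiating conditions it was at 66.6, 59.1, 74.2 and 47.2 in Kat6a+/+ and 6.25, 3.65, 8.61 and 14.4 CPM in Kat6a-/- NSPCs. The genotypes stood apart in both conditions, but during proliferation only by the narrow gap between 153.18 and 152.95 CPM. The log2 fold change was -0.33 (SE 0.18, FDR 0.23) in proliferating and -3.09 (SE 0.30, FDR 1.5e-05) in differentiating NSPCs (interaction -2.76, SE 0.36, FDR 7.4e-04). Cenpf, a kinetochore protein (-2.91, SE 0.39), Ccna2, cyclin A2 (-2.88, SE 0.41), and Nuf2, part of the complex that binds microtubules to kinetochores (-2.62, SE 0.37), had interactions of similar size. Among the S phase genes, Rrm2, a subunit of ribonucleotide reductase, showed -2.54 (SE 0.38), Clspn, a mediator of the replication checkpoint, -2.16 (SE 0.35), and Mcm2, part of the replicative helicase, -1.98 (SE 0.29). Each of these 7 genes was called in each of the 16 fits that left out 1 library.

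Promoters of cell cycle genes are known to carry 2 kinds of element: the CHR, often paired with CCAAT boxes, in genes of G2 and mitosis, and E2F sites in genes of S phase. Promoter sequences (250 bases before to 50 bases after the annotated start) came from RefSeq on GRCm38.p6, and 8556 of the genes tested had exactly 1. The promoters of 3 genes are shown, each with a fall called in differentiating NSPCs only. They were picked by the smallest interaction p among called list members whose single promoter holds the letters marked below. Holding the letters was thus a condition of the choice, and their presence in these 3 is not a result. In the promoters of Bub1b (chr2:118597961-118598260, plus strand) and Cenpf (chr1:189688037-189688336, minus strand), capitals mark the CHR letters TTTGAA or TTCGAA and CCAAT on either strand. In that of Clspn (chr4:126556730-126557029, plus strand), capitals mark the E2F letters TTTCGCGC, TTTGGCGC or TTTCCCGC on either strand. None of these strings contains another.
Bub1b: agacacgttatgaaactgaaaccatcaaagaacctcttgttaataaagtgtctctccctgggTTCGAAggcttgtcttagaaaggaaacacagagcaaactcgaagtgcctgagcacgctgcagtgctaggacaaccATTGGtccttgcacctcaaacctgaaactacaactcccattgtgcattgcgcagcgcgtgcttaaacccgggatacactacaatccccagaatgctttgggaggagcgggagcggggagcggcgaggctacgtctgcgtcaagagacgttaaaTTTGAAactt
Cenpf: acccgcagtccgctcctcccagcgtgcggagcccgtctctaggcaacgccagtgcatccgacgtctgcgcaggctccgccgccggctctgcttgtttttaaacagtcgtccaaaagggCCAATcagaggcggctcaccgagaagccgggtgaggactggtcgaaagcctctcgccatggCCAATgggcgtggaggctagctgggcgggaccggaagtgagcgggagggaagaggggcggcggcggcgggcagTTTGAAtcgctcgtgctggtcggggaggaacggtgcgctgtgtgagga
Clspn: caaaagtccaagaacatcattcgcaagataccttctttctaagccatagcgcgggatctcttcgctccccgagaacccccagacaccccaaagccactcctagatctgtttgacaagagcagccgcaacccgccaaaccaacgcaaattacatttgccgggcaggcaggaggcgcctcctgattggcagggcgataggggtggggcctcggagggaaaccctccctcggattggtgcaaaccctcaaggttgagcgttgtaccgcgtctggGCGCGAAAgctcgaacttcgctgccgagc
The CHR letters were found in 24 of 30 G2 and mitosis promoters (80%), in 28.4% of the promoters of the falling genes called in differentiating NSPCs only, and in 13.5% of all. CCAAT was found in 73.3%, 55.8% and 39.9% of the same sets. The E2F letters were found in 11 of 30 S phase promoters (36.7%) and 3.78% of all. In the genes rising in differentiating NSPCs only, the share with CHR letters was 13.3%. A match of letters is a description and does not show that a factor binds there.

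The E2F factor gene E2f2 belonged to the genes that changed alike in both conditions but by unequal size. It was at 37.0, 36.2, 40.3 and 39.8 in proliferating Kat6a+/+ and 33.4, 28.4, 27.0 and 20.1 CPM in proliferating Kat6a-/- NSPCs, and at 9.06, 9.71, 12.3 and 7.83 against 0.679, 0.370, 1.19 and 1.34 CPM in differentiating NSPCs. The genotypes did not overlap in either condition. The fall was -0.49 (SE 0.15, FDR 0.035) during proliferation and -3.49 (SE 0.39, FDR 3.1e-05) after differentiation. Among 10 CDK inhibitors and D cyclins, Cdkn2c, which encodes p18, had the one called interaction (-1.22, SE 0.22, FDR 0.0035). Without differentiating Kat6a-/- replicate 2, and likewise by edgeR and by DESeq2, 5 of the 10 were called, 4 of them positive. Cdkn2a rose in both conditions, by 2.07 (SE 0.36) and 3.59 (SE 0.31), and its interaction was not called (1.52, SE 0.49, FDR 0.058).

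**Figure D2:**
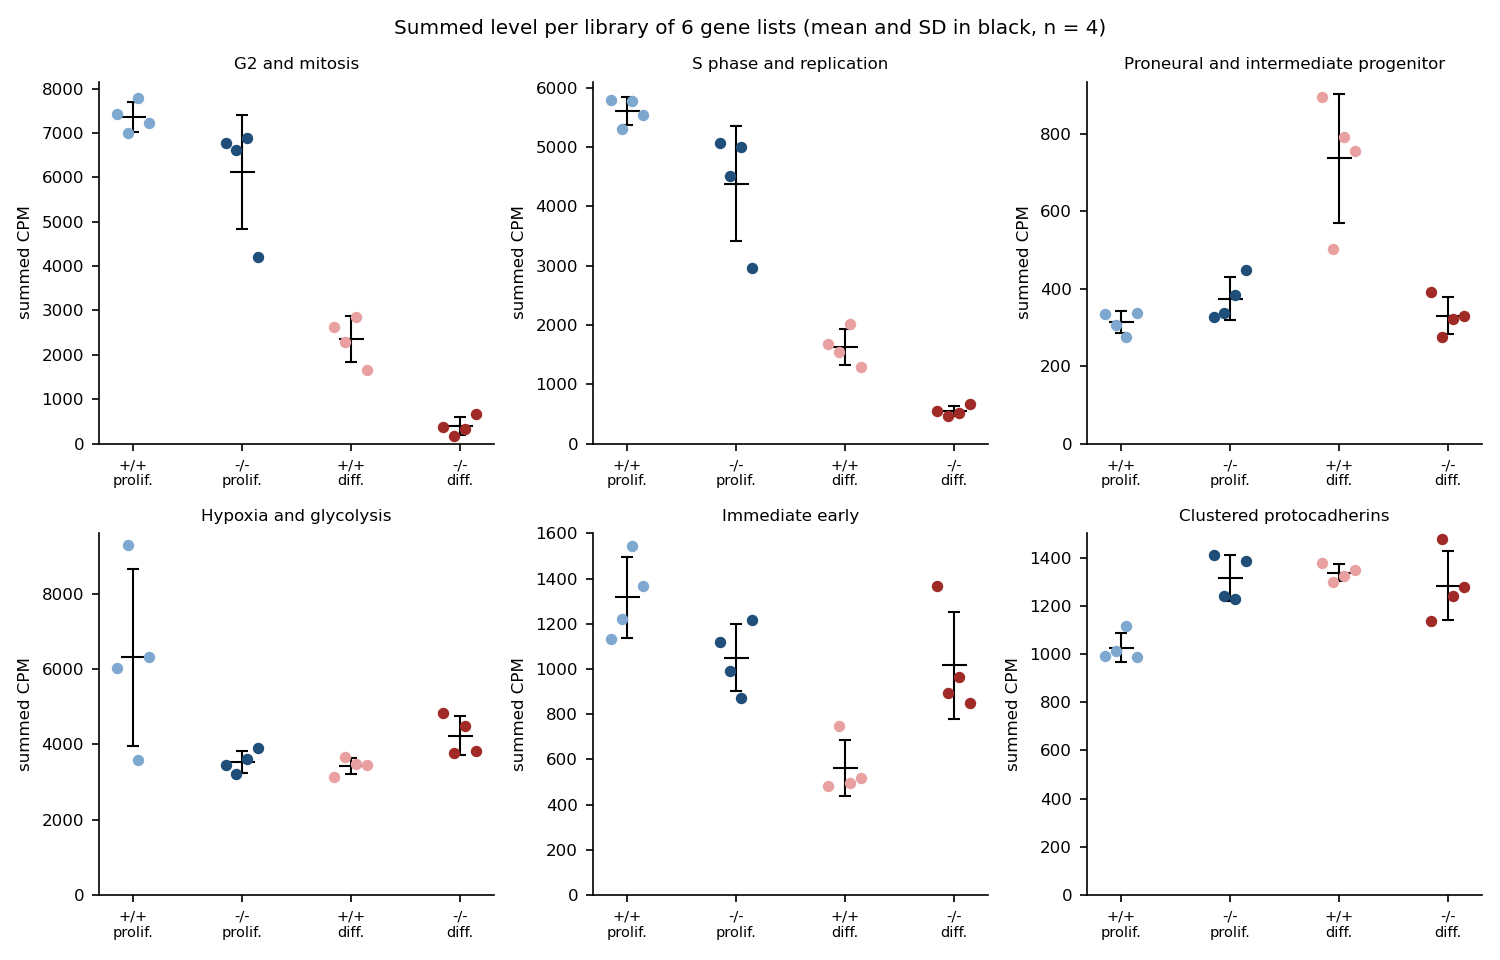
Summed CPM of 6 gene lists in each of the 16 libraries, with the mean and SD of each group of 4 in black. G2 and mitosis genes sum to 179 to 666 CPM in differentiating Kat6a-/- libraries and to 1648 to 2846 CPM in Kat6a+/+ ones, while the proliferating libraries lie between 4198 and 7783 CPM, and hypoxia and glycolysis genes are spread widely among the proliferating Kat6a+/+ libraries (3597 to 9307 CPM).

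Proneural and intermediate progenitor genes were lower in differentiating Kat6a-/- NSPCs, as were several genes of the Notch pathway. Of 12 tested proneural and intermediate progenitor genes, 8 fell in differentiating and none was called in proliferating Kat6a-/- NSPCs, and 6 had called negative interactions, all in the class called in differentiating NSPCs only. Without 1 library the number ranged from 4 to 8. Insm1, a zinc finger factor of neuron-producing progenitors (chr2:146063841-146066940), was at 8.15, 7.83, 6.54 and 7.86 in proliferating Kat6a+/+ and 12.5, 14.9, 18.2 and 10.6 CPM in proliferating Kat6a-/- NSPCs. Under differentiating conditions it was at 172, 51.6, 147 and 83.6 in Kat6a+/+ and 4.96, 5.66, 5.40 and 13.2 CPM in Kat6a-/- NSPCs. The 4 Kat6a-/- libraries were above the Kat6a+/+ range before differentiation and below it afterwards, with effects of 0.78 (SE 0.58, FDR 0.37) and -3.91 (SE 0.47, FDR 5.3e-05) and an interaction of -4.69 (SE 0.77, FDR 0.0022).

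Hes6, which promotes neurogenesis (-1.59, SE 0.28), and Elavl3, an RNA-binding protein of early neurons (-2.17, SE 0.50), had called interactions as well. Of 19 tested neuronal cytoskeleton and synapse genes, 1 rose and 6 fell in proliferating and 3 rose and 7 fell in differentiating Kat6a-/- NSPCs. The median interaction was -0.01. Of the 19 interactions, 2 were called (10.5%, against 11.6% of all genes), both positive. One was Gap43, a growth cone protein (1.41, SE 0.31, FDR 0.0088), and the other Sncb, described with the opposite genes. Without differentiating Kat6a-/- replicate 2 there were 4 positive calls and 1 negative, and with library quality weights 4 and 5. Dcx, which marks migrating neurons, fell after differentiation (-3.32, SE 0.72, FDR 0.0034), but its interaction missed the threshold (-3.99, SE 1.32, FDR 0.063).

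Among the Notch ligands, 2 of 5 had called negative interactions. By edgeR and by DESeq2 1 positive call was added, and without differentiating Kat6a-/- replicate 2 there were 2 of each sign. Dll3, a ligand-like protein that acts within the signal-sending cell, was at 4.94, 4.03, 7.63 and 5.83 in proliferating Kat6a+/+ and 12.3, 10.3, 11.6 and 9.69 CPM in Kat6a-/- NSPCs. In differentiating NSPCs it was at 44.4, 7.63, 33.4 and 16.5 in Kat6a+/+ and 1.97, 0.793, 1.19 and 3.25 CPM in Kat6a-/- NSPCs. Without overlap in either condition, Kat6a-/- libraries were higher before and lower after differentiation, although the proliferating effect was not called (1.09, SE 0.67, FDR 0.28, interaction -4.70, SE 1.11, FDR 0.013). Dll1, the main ligand of cortical progenitors, had an interaction of -1.87 (SE 0.41, FDR 0.0095). Jag2 ran the other way, with a rise of 2.27 (SE 0.55, FDR 0.0062) after differentiation and an interaction that missed the threshold (2.92, SE 0.91, FDR 0.051).

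Of 4 Notch receptors, Notch1 was called (-0.87, SE 0.22, FDR 0.02). Of 10 modifiers and cofactors, 3 were called: Mfng, a glycosyltransferase that modifies Notch (-4.81, SE 1.06, FDR 0.0094), Maml2, a coactivator (-0.48, SE 0.11, FDR 0.013), and Numbl, an adaptor that antagonises Notch (1.03, SE 0.28, FDR 0.029), whose effect was called in neither condition. Mfng was at 2.47, 2.13, 2.97 and 5.20 in proliferating Kat6a+/+ and 2.96, 4.67, 4.81 and 1.62 CPM in Kat6a-/- NSPCs, and at 7.96, 1.53, 4.91 and 5.72 against 0.136, 0.106, 0.119 and 0.255 CPM in differentiating NSPCs. The proliferating groups overlapped and the differentiating groups did not. Of 4 Notch targets tested, Nrarp, a feedback inhibitor, was called (-2.80, SE 0.53, FDR 0.0041). Hes5 fell by 4.04 on the log2 scale after differentiation (SE 0.87), with an interaction of -3.28 (SE 1.25, FDR 0.10), and Hes1 and Hey1 were not called in either condition.

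The fourth gene with a large negative interaction in this class was Col9a1, a chain of collagen IX, at 0.196, 0.474, 0.892 and 0.507 CPM in proliferating Kat6a+/+, 1.93, 2.21, 1.86 and 0.404 CPM in proliferating Kat6a-/-, 2.75, 2.84, 4.67 and 2.65 in differentiating Kat6a+/+ and 0.204, 0.529, 0.297 and 1.34 CPM in differentiating Kat6a-/- NSPCs. Its low values changed order between the conditions, with overlap in the first (interaction -4.42, SE 0.89, FDR 0.0055). Sox4, a factor of neuronal commitment, had the one called interaction among 12 SOX genes (-1.01, SE 0.20, FDR 0.0051), although 8 of the 12 fell after differentiation. Calls in this list numbered 3 without differentiating Kat6a-/- replicate 2 and 4 without its replicate 4 or without differentiating Kat6a+/+ replicate 2.

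The 4 genes with the largest positive interactions among those rising in differentiating NSPCs only were of low level. Emp3, a membrane protein, was at 0.979, 0.949, 0.397 and 0.254 in proliferating Kat6a+/+ and 0.227, 0, 0.328 and 1.21 CPM in proliferating Kat6a-/- NSPCs. Differentiating cultures had it at 0.604, 2.18, 0.583 and 0.673 in Kat6a+/+ and 7.61, 4.76, 7.84 and 5.67 CPM in Kat6a-/- NSPCs. Only the differentiating groups stood apart (2.84, SE 0.46, FDR 3.8e-04, interaction 4.17, SE 0.96, FDR 0.012). Ahnak2, a large scaffold protein, was at 0.494, 1.80, 0.535 and 0.547 in differentiating Kat6a+/+ and 20.0, 4.28, 14.2 and 8.22 CPM in differentiating Kat6a-/- NSPCs, with overlapping values of 0.765 to 2.42 CPM during proliferation (interaction 4.24, SE 1.08, FDR 0.019). Atg9b, of autophagosome formation (4.01, SE 0.82, FDR 0.0060), and Tchh, trichohyalin (3.20, SE 0.77, FDR 0.015), completed the 4 largest. Atg9b was at 0.0549 to 0.436 CPM in differentiating Kat6a+/+ and 0.423 to 1.90 CPM in Kat6a-/- NSPCs, which overlapped through replicate 2. It also lay below the Kat6a+/+ range in each proliferating Kat6a-/- library, at 0.606 to 1.56 against 1.78 to 3.50 CPM.

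Extracellular protease and matrix genes were examined next. Of 12 genes of plasminogen activation and metalloproteases, 7 rose after differentiation, 3 had called positive interactions (Timp1, Adamts1 and Plaur) and none a negative one. Timp1, an inhibitor of metalloproteases, was at 4.86 to 8.57 CPM in proliferating Kat6a+/+ and 3.50 to 6.71 CPM in proliferating Kat6a-/- NSPCs. Under differentiating conditions it was at 2.09, 3.27, 1.36 and 1.35 in Kat6a+/+ and 10.5, 6.98, 11.9 and 6.43 CPM in Kat6a-/- NSPCs. The groups overlapped before and stood apart after differentiation (interaction 2.74, SE 0.47, FDR 0.0025). Bmp2, a secreted growth factor, rose after differentiation only (3.37, SE 0.59, interaction 3.23, SE 0.78, FDR 0.015). The differentiating Kat6a-/- libraries differed among themselves in the matrix genes. Matricellular and adhesion genes summed to 19800, 5302, 19180 and 10160 CPM in replicates 1 to 4, and replicate 2 alone lay below the Kat6a+/+ range of 5322 to 7865 CPM. Of these 18 genes, 5 had called interactions, and 12 without replicate 2. For collagens these counts were 4 and 13 of 35, where the 4 (11.4%, against 11.6% of all genes) were 2 positive and 2 negative and the 13 were 9 positive and 4 negative. For ERK feedback genes they were 3 and 12 of 14. Leaving out any other library gave 2 to 5, 2 to 6 and 1 to 4 calls in the matricellular, collagen and ERK feedback lists.

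The genes called in proliferating NSPCs only were led on the falling side by hypoxia and glycolysis genes. Of 26 such genes, 15 fell in proliferating Kat6a-/- NSPCs and none rose, while 1 fell and 3 rose after differentiation. The interaction was positive and called at 12, against 4.08% of all genes, and 9 of the 12 were called in proliferating NSPCs only. The median effect was -1.16 during proliferation and 0.17 after differentiation. Hk2, a hexokinase that starts glycolysis (chr6:82699740-82751469), was at 149, 203, 84.4 and 159 in proliferating Kat6a+/+ and 44.4, 49.7, 38.8 and 18.1 CPM in proliferating Kat6a-/- NSPCs. Once differentiated, NSPCs had it at 26.3, 36.0, 26.6 and 33.4 in Kat6a+/+ and 50.1, 25.2, 35.4 and 37.6 CPM in Kat6a-/- NSPCs. Proliferating Kat6a+/+ NSPCs were the one high group (effects -2.08, SE 0.32, FDR 7.4e-04, and 0.20, SE 0.30, FDR 0.66, interaction 2.28, SE 0.45, FDR 0.0052).

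Ldha, lactate dehydrogenase, was at 1100, 1560, 592 and 992 in proliferating Kat6a+/+ and 440, 444, 449 and 429 CPM in proliferating Kat6a-/- NSPCs, and at 331 to 448 and 426 to 647 CPM after differentiation (interaction 1.60, SE 0.31, FDR 0.0046). Pgk1, phosphoglycerate kinase, had an interaction of 1.17 (SE 0.25, FDR 0.0076). Pfkp, the platelet form of phosphofructokinase, reversed: at 57.4, 60.6, 40.0 and 43.6 CPM it was higher in proliferating Kat6a+/+ than in Kat6a-/- NSPCs (17.3, 11.9, 19.1 and 31.3 CPM), and at 80.0, 140, 83.2 and 56.6 CPM it was lower in differentiating Kat6a+/+ than in Kat6a-/- NSPCs (299, 180, 279 and 186 CPM). The groups did not overlap in either condition (interaction 2.88, SE 0.47, FDR 0.0021). The level of the whole list varied among proliferating Kat6a+/+ cultures: it summed to 6029, 9307, 3597 and 6310 CPM, and replicate 3 lay among the Kat6a-/- libraries (3214 to 3893 CPM). The number of called interactions was 22 without that library, 5 without proliferating Kat6a-/- replicate 1 and 7 without its replicate 2 or without differentiating Kat6a+/+ replicate 1 or 3. It was 4 with terms for sex and 5 with the litter as a fixed term. The hypoxia response element was searched as ACGTG or GCGTG on either strand after the results were seen. It was in 14 of 16 promoters of this list (87.5%) and in 63.8% of all. Its share was similar in immediate early promoters (10 of 12, 83.3%). It was 60% in S phase and in G2 and mitosis promoters and 53.8% in interferon promoters.

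Genes of the amino acid stress response governed by ATF4 and cytosolic ribosomal protein genes also included falls in proliferating Kat6a-/- NSPCs. Of 20 ATF4 genes, 7 fell and none rose in proliferating Kat6a-/- NSPCs, and 6 had called positive interactions (3 to 9 without 1 library). Asns, asparagine synthetase, was at 100, 118, 73.9 and 92.8 in proliferating Kat6a+/+ and 34.3, 44.5, 53.2 and 37.3 CPM in proliferating Kat6a-/- NSPCs, and at 17.2 to 26.2 and 22.4 to 28.2 CPM after differentiation. Only the proliferating groups stood apart (interaction 1.52, SE 0.24, FDR 0.0018). Of 83 ribosomal protein genes, 37 fell in proliferating and none was called in differentiating Kat6a-/- NSPCs, with medians of -0.46 and -0.04. The interaction was positive and called at 5 genes (6.02%, against 4.08% of all), or 30 without differentiating Kat6a-/- replicate 2, 2 to 9 without any other library, 2 with unscaled library totals and 20 by DESeq2. Rps2 (0.76, SE 0.19, FDR 0.017) and Rpl37 (0.70, SE 0.17, FDR 0.017) were the members with the smallest p. These genes have near-identical pseudogenes, and the counting may have split their reads.

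MHC class I genes, which present peptides at the cell surface, had 3 called interactions among 12, all positive and all called in proliferating NSPCs only. H2-D1 was at 23.9, 21.2, 17.1 and 23.6 in proliferating Kat6a+/+ and 6.37, 7.27, 7.32 and 6.26 CPM in proliferating Kat6a-/- NSPCs, and at 23.8 to 33.2 and 19.1 to 26.2 CPM after differentiation. Only the proliferating groups stood apart (interaction 1.43, SE 0.29, FDR 0.0053). H2-K1 (1.39, SE 0.42, FDR 0.043) and Tap2, a subunit of the peptide transporter, were the others. Without 1 library the number ranged from 1 to 4. The H2 genes are close relatives, and reads may be shared between them.

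By size of the effect, the largest falls in this class among genes called in each of the 16 fits without 1 library were in Filip1, a filamin A-binding protein, and Tcim, a regulator of Wnt transcription, besides Hk2. Filip1 was at 13.6, 11.9, 7.73 and 13.4 in proliferating Kat6a+/+ and 1.25, 2.60, 2.40 and 1.82 CPM in proliferating Kat6a-/- NSPCs, and at under 1 CPM in all differentiating libraries (0.165 to 0.950). Tcim was at 15.5, 21.2, 11.5 and 12 in proliferating Kat6a+/+ and 2.16, 3.37, 2.62 and 4.85 CPM in proliferating Kat6a-/- NSPCs, and at 4.67 to 8.5 and 5.02 to 16 CPM after differentiation. In both genes only the proliferating groups stood apart. The interaction was 3.62 (SE 0.68) for Filip1 and 2.93 (SE 0.65) for Tcim. Tcim (mm39 chr8:24927196-24929000) lies on the same chromosome as the targeted gene Kat6a (chr8:23349545-23433275). Whether this position bears on its fall was not tested. Since Filip1 was close to 0 in differentiating cultures, its differentiating effect is poorly determined (0.97, SE 0.58, FDR 0.22).

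Of the genes with a rise called in proliferating NSPCs only, Frem1, a basement membrane protein (chr4:82816164-82970576), was at 1.00, 0.830, 1.69 and 2.28 in proliferating Kat6a+/+ and 30.4, 15.3, 16.5 and 32.1 CPM in proliferating Kat6a-/- NSPCs. In differentiating NSPCs it was at 11.3, 10.4, 12.6 and 10.2 in Kat6a+/+ and 9.98, 17.6, 7.36 and 9.87 CPM in Kat6a-/- NSPCs. The genotypes stood apart before and overlapped after differentiation (effects 4.29, SE 0.50, FDR 1.1e-04, and 0.02, SE 0.28, FDR 0.97, interaction -4.27, SE 0.58, FDR 8.4e-04). Tmem179, a membrane protein, was at 0.367, 0.356, 0.0991 and 0.127 CPM against 8.07, 4.54, 7.43 and 13.2 CPM in proliferating NSPCs and at 0.927 to 3.29 against 1.91 to 4.96 CPM in differentiating ones (interaction -4.02, SE 0.81, FDR 0.0053). Lrrc75b was at 0.178 to 0.888 CPM against 5.06 to 14.1 CPM in proliferating and at 110 to 161 against 148 to 199 CPM in differentiating NSPCs (interaction -3.57, SE 0.68, FDR 0.0041). Its differentiating effect was also a rise and narrowly missed the threshold (0.39, SE 0.15, interval 0.07 to 0.70, FDR 0.060). In mean CPM, the rise of Lrrc75b was larger after differentiation (135 to 177) than during proliferation (0.549 to 8.46). The class thus rests on the log2 scale and the threshold for this gene. Frem1 and Tmem179 were higher in proliferating Kat6a-/- than in differentiating Kat6a+/+ NSPCs, whereas Lrrc75b lay between the proliferating and differentiating Kat6a+/+ levels.

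The clustered protocadherins, adhesion molecules that give neurons a surface identity, had called interactions in a single subfamily, Pcdhb. Of 21 Pcdhb genes tested (mm39 chr18:37427865-37657532), 14 rose in proliferating Kat6a-/- NSPCs, and 11 had called negative interactions, 9 of them in the class called in proliferating NSPCs only. Of 3 Pcdha and 21 Pcdhg genes of the same locus, none had a called interaction and 1 rose in proliferating NSPCs. The median effect of the Pcdhb genes was 1.25 in proliferating and -0.15 in differentiating NSPCs, and that of the Pcdhg genes was 0.38 and 0.02. Pcdhb16 was at 9.50, 13.9, 14.3 and 13.2 in proliferating Kat6a+/+ and 32.1, 21.3, 19.8 and 31.7 CPM in proliferating Kat6a-/- NSPCs, and at 25.7 to 29.0 and 24.2 to 30.2 CPM after differentiation. Proliferating Kat6a+/+ NSPCs were the one low group (interaction -1.19, SE 0.23, FDR 0.0045). Pcdhb11 (interaction -1.55, SE 0.33) was in the same class, while Pcdhb14 (interaction -1.09, SE 0.23) rose in both conditions and Pcdhb6 (interaction -2.70, SE 0.56) had opposite effects. Pcdhb genes are close copies of each other, and reads may be shared among them. The difference between the subfamilies was not tested. Over the whole locus 11 interactions were called, 4 without proliferating Kat6a+/+ replicate 1, 7 without proliferating Kat6a-/- replicate 1, 18 without differentiating Kat6a-/- replicate 2, 16 with unscaled library totals, 6 with the litter as a fixed term and 5 with terms for sex.

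Several glial genes rose in proliferating NSPCs only. Of 18 astrocyte genes, 8 rose and 2 fell in proliferating and 3 rose and 3 fell in differentiating Kat6a-/- NSPCs, and 3 interactions were negative and 1 positive (9 in all without differentiating Kat6a-/- replicate 2). Mlc1, a membrane protein of astrocyte endfeet, was at 133, 130, 100 and 139 in proliferating Kat6a+/+ and 417, 330, 363 and 423 CPM in proliferating Kat6a-/- NSPCs. Differentiating cultures had it at 1173, 1158, 1020 and 1541 in Kat6a+/+ and 962, 2113, 1120 and 1244 CPM in Kat6a-/- NSPCs, so that only the proliferating groups stood apart (interaction -1.51, SE 0.28, FDR 0.0035). Slc1a3, a glutamate transporter of radial glia and astrocytes (-1.17, SE 0.26, FDR 0.0097), was in the same class. Of 10 radial glia genes, 4 had called interactions, negative in Slc1a3 and Ptprz1, a phosphatase of glial progenitors (-1.0, SE 0.23, FDR 0.011), and positive in Vim and Nes. There were 7 without differentiating Kat6a-/- replicate 2. Glul, glutamine synthetase, fell after differentiation only (effect -0.91, SE 0.14, FDR 2.7e-04, interaction -0.97, SE 0.20, FDR 0.0057). Of 21 Wnt pathway genes 5 had called interactions, 1 positive and 4 negative. Among them was Wnt7b, a cortical Wnt ligand that rose in proliferating NSPCs only (interaction -1.75, SE 0.32, FDR 0.0036). Of 19 BMP and ID genes 6 had called interactions, 1 positive and 5 negative. Leaving out 1 library gave 2 to 7 calls in the Wnt and 2 to 8 in the BMP and ID list. Id1, an inhibitor of proneural factors and a target of BMP signals, rose in proliferating NSPCs only, at 9.72, 8.54, 9.52 and 9.26 against 30.6, 20.5, 19.1 and 52.3 CPM in proliferating and at 183 to 211 against 142 to 204 CPM in differentiating NSPCs (interaction -1.81, SE 0.34, FDR 0.0039).

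**Figure D3:**
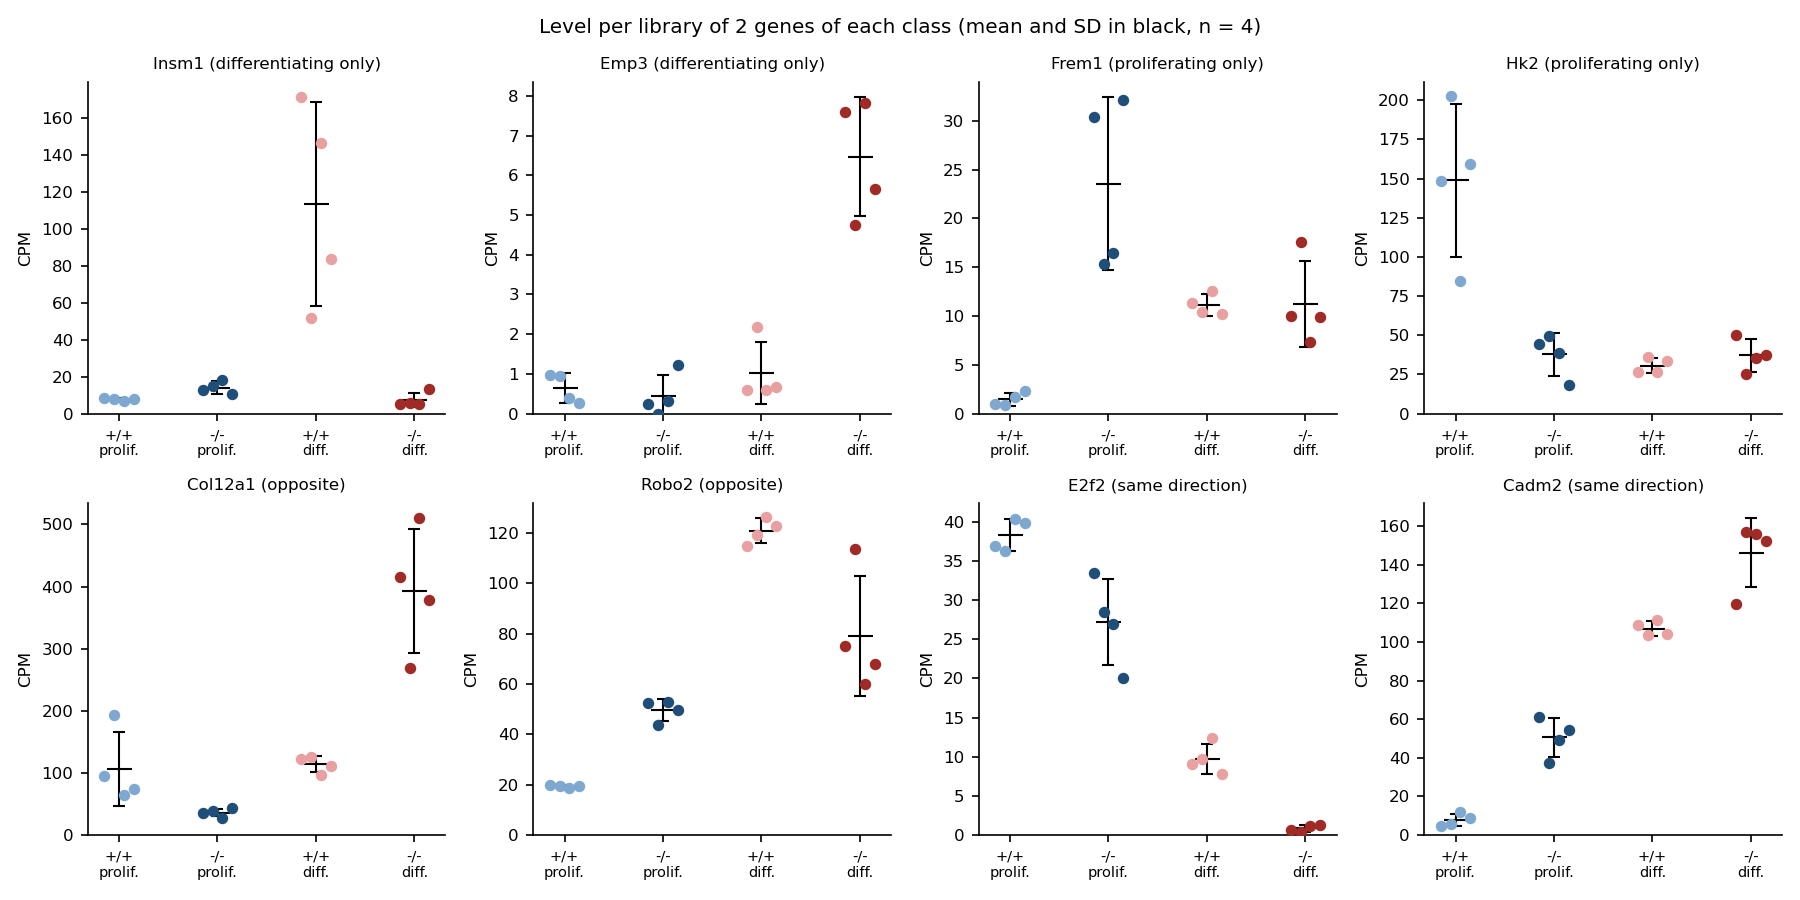
CPM of 8 genes in each of the 16 libraries, 2 genes for each class, with the mean and SD of each group of 4 in black. Insm1 is higher in Kat6a-/- libraries during proliferation and lower after differentiation, with a called effect after differentiation only, Emp3 stands apart after differentiation only, Frem1 and Hk2 during proliferation only, Col12a1 and Robo2 differ in opposite directions, and E2f2 and Cadm2 differ in the same direction in both conditions.

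In 129 genes, Kat6a loss had opposite called effects in the 2 conditions. Of these, 69 were lower in proliferating and higher in differentiating Kat6a-/- NSPCs, and 60 the reverse. In 81 of the 129, the genotypes did not overlap in either condition, and over all genes tested 183 (1.36%) were separated in this way in opposite directions. The interaction of all 129 stayed called in each of the 16 fits without 1 library. That both effects were called was less stable: 56 genes met this rule without proliferating Kat6a+/+ replicate 1, 60 without proliferating Kat6a-/- replicate 1, 66 without proliferating Kat6a+/+ replicate 2 and 325 without differentiating Kat6a-/- replicate 2. It was 12 genes with the litter as a fixed term, 50 with terms for sex, and none within the 2 litters that held both genotypes in both conditions.

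Col12a1, a collagen XII chain that links matrix fibrils (chr9:79506268-79626135), was at 94.6, 193, 64.8 and 73.3 in proliferating Kat6a+/+ and 34.8, 38.9, 28.1 and 42.7 CPM in proliferating Kat6a-/- NSPCs. Under differentiating conditions it was at 122, 125, 96.9 and 111 in Kat6a+/+ and 415, 268, 510 and 378 CPM in Kat6a-/- NSPCs. The groups stood apart in both conditions (effects -1.55, SE 0.34, FDR 0.0073, and 1.72, SE 0.27, FDR 3.6e-04, interaction 3.27, SE 0.45, FDR 9.2e-04).

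Sncb, β-synuclein of presynaptic terminals, had the largest interaction of the class by the fit (6.11, SE 1.29, FDR 0.0075), but at few reads. It was at 1.57, 7.65, 0.198 and 2.16 in proliferating Kat6a+/+ and 0, 0, 0 and 0.202 CPM in proliferating Kat6a-/- NSPCs, or about 215 reads against 2. These reads were worked back from CPM and library totals and are approximate. The pooled rate was about 2% of that of Kat6a+/+ (95% exact conditional interval about 0.24 to 7%, which covers counting error only). Once differentiated, NSPCs had it at 2.58, 5.73, 2.97 and 3.41 in Kat6a+/+ and 8.08, 12.3, 8.49 and 9.11 CPM in Kat6a-/- NSPCs. The differentiating groups stood apart, while the lowest proliferating Kat6a+/+ library fell among the Kat6a-/- ones. The fitted fold change of such low values depends on the prior count and is no bound.

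Gprc5c, an orphan receptor (4.90, SE 1.04, FDR 0.0075), was at 2.13, 2.19, 1.29 and 1.65 CPM against 0, 0.260, 0.218 and 0.404 CPM in proliferating and at 1.81, 2.02, 1.85 and 1.22 against 6.45, 2.33, 11 and 4.59 CPM in differentiating NSPCs. It changed order without overlap. Lrrc3b (3.71, SE 0.87, FDR 0.012) was at 4.46 to 10.1 against 2.52 to 4.89 CPM and, after differentiation, at 0 to 0.330 against 0.382 to 0.772 CPM, so that the proliferating groups overlapped and few reads carry the second effect.

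On the other side, Plxnc1, a semaphorin receptor (chr10:94626728-94780877), was at 23.1, 22.5, 21.0 and 21.4 in proliferating Kat6a+/+ and 74.6, 50.4, 54.2 and 59.6 CPM in proliferating Kat6a-/- NSPCs. In differentiating NSPCs it was at 68.6, 45.1, 57.6 and 71.8 in Kat6a+/+ and 11.8, 48.4, 13.7 and 33.1 CPM in Kat6a-/- NSPCs. The proliferating groups stood apart, and after differentiation Kat6a-/- replicate 2 reached into the Kat6a+/+ range (effects 1.41, SE 0.34, FDR 0.011, and -1.35, SE 0.31, FDR 0.0046, interaction -2.76, SE 0.47, FDR 0.0024). Ccdc3, a secreted protein, was at 0.147 to 0.397 against 0.909 to 2.84 CPM in proliferating and at 177 to 214 against 105 to 166 CPM in differentiating NSPCs. The groups were separate both times, but the rise took place near the limit of detection (interaction -3.81, SE 0.74, FDR 0.0046). Dipk1c, a kinase-like membrane protein that overlapped after differentiation (-2.59, SE 0.52, FDR 0.0056), and Pcdhb6 (-2.70, SE 0.56, FDR 0.0062) completed the group. Pcdhb6 was at 0.636, 1.36, 2.28 and 2.54 against 6.93, 2.34, 2.73 and 3.94 CPM in proliferating and at 6.21, 5.51, 6.32 and 7.79 against 4.08, 2.64, 3.92 and 2.55 CPM in differentiating NSPCs, with overlap during proliferation only.

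Of 63 axon guidance genes, 9 rose and 5 fell in proliferating and 10 rose and 15 fell in differentiating Kat6a-/- NSPCs. Interactions were called at 12 (19%, against 11.6% of all genes). Of these 12, 4 were of the opposite class, which held 129 of all 13469 genes. All 4 were higher in proliferating and lower in differentiating Kat6a-/- NSPCs. Besides Plxnc1, they were Robo2, a receptor for SLIT repellents, Ephb1, an ephrin receptor, and Ntn1, netrin 1. Robo2 was at 20.0, 19.4, 18.6 and 19.4 in proliferating Kat6a+/+ and 52.5, 43.6, 52.7 and 49.7 CPM in proliferating Kat6a-/- NSPCs. Differentiating cultures had it at 115, 119, 126 and 123 in Kat6a+/+ and 75.3, 114, 59.8 and 68.1 CPM in Kat6a-/- NSPCs, so that the groups stood apart both times, after differentiation by the narrow gap between 114 and 115 CPM (interaction -2.0, SE 0.24, FDR 6.0e-04). Ephb1 had an interaction of -1.33 (SE 0.23, FDR 0.0025) and Ntn1, which overlapped during proliferation, of -1.13 (SE 0.21, FDR 0.0034). Of all 12 called, 10 were negative, while negative calls made up 7.54% of all genes tested. There were 13 positive and 13 negative calls without differentiating Kat6a-/- replicate 2, and 7 in all without proliferating Kat6a+/+ replicate 1.

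Immediate early genes, which are induced by growth factors and stress within minutes, had positive interactions. Of 17 tested, 4 fell in proliferating and 8 rose in differentiating Kat6a-/- NSPCs, and 8 interactions were called, all positive, with 3 genes in the opposite class, 4 called in differentiating and 1 in proliferating NSPCs only. Jun, a subunit of AP-1, was at 303, 266, 246 and 326 in proliferating Kat6a+/+ and 136, 195, 213 and 158 CPM in proliferating Kat6a-/- NSPCs. Under differentiating conditions it was at 115, 151, 124 and 125 in Kat6a+/+ and 206, 198, 167 and 174 CPM in Kat6a-/- NSPCs. There was no overlap in either condition (effects -0.72, SE 0.14, FDR 0.0030, and 0.52, SE 0.14, FDR 0.0098, interaction 1.24, SE 0.20, FDR 0.0018). Jund (interaction 1.14, SE 0.19, FDR 0.0022) and the nuclear receptor Nr4a1 (interaction 1.76, SE 0.43, FDR 0.016) were opposite as well, each with overlap in one condition. Ier3, a stress-induced survival factor, had a called rise after differentiation only (1.94, SE 0.36, FDR 0.0010, interaction 2.26, SE 0.54, FDR 0.015). With the litter as a fixed term 3 of the 17 were called, with terms for sex 4, and without proliferating Kat6a+/+ replicate 1, 5.

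Vim and Bst2 were opposite as well. Vim, the intermediate filament of progenitors and astrocytes, was at 4102, 3500, 3624 and 4081 in proliferating Kat6a+/+ and 2484, 2879, 3020 and 2424 CPM in proliferating Kat6a-/- NSPCs, and at 4133, 5090, 4176 and 5434 against 7071, 9267, 6317 and 6914 CPM in differentiating NSPCs. The groups were separate both times (interaction 1.14, SE 0.18, FDR 0.0017). Nes, the filament of neural stem cells, changed likewise but with a proliferating effect that was not called (-0.40, SE 0.20, FDR 0.19, interaction 1.20, SE 0.29, FDR 0.015). Bst2, an interferon-induced membrane protein, was at 8.25, 5.57, 9.02 and 7.86 against 2.05, 4.15, 2.08 and 2.93 CPM in proliferating and at 1.59, 1.91, 1.51 and 1.09 against 3.80, 2.33, 3.68 and 2.80 CPM in differentiating NSPCs (interaction 2.51, SE 0.41, FDR 0.0020). Of 23 interferon genes 4 had called interactions, all positive, the others being Irf1 (1.04, SE 0.18), Ifih1 (1.73, SE 0.49) and Irf7 (2.68, SE 0.78). Without 1 library the number ranged from 2 to 6.

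Among the 48 genes that changed in the same direction by unequal size, the effect was larger after differentiation in 28 and larger during proliferation in 20. Cadm2, a synaptic adhesion molecule, was at 4.50, 5.93, 11.8 and 9.01 in proliferating Kat6a+/+ and 61.3, 37.3, 49.3 and 54.5 CPM in proliferating Kat6a-/- NSPCs, and at 109, 103, 111 and 104 against 120, 157, 156 and 152 CPM in differentiating NSPCs. It rose in both conditions, by 3.08 (SE 0.23) and 0.46 (SE 0.14), with an interaction of -2.63 (SE 0.28, FDR 1.9e-04). Axl, a receptor kinase, behaved alike (interaction -1.43, SE 0.25, FDR 0.0026). Ppp1r3d, a subunit that targets protein phosphatase 1 to glycogen (interaction 1.26, SE 0.26, FDR 0.0061), and Fam217b (interaction 1.13, SE 0.23, FDR 0.0063) rose more after differentiation, with no overlap in either condition.

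**Figure D4:**
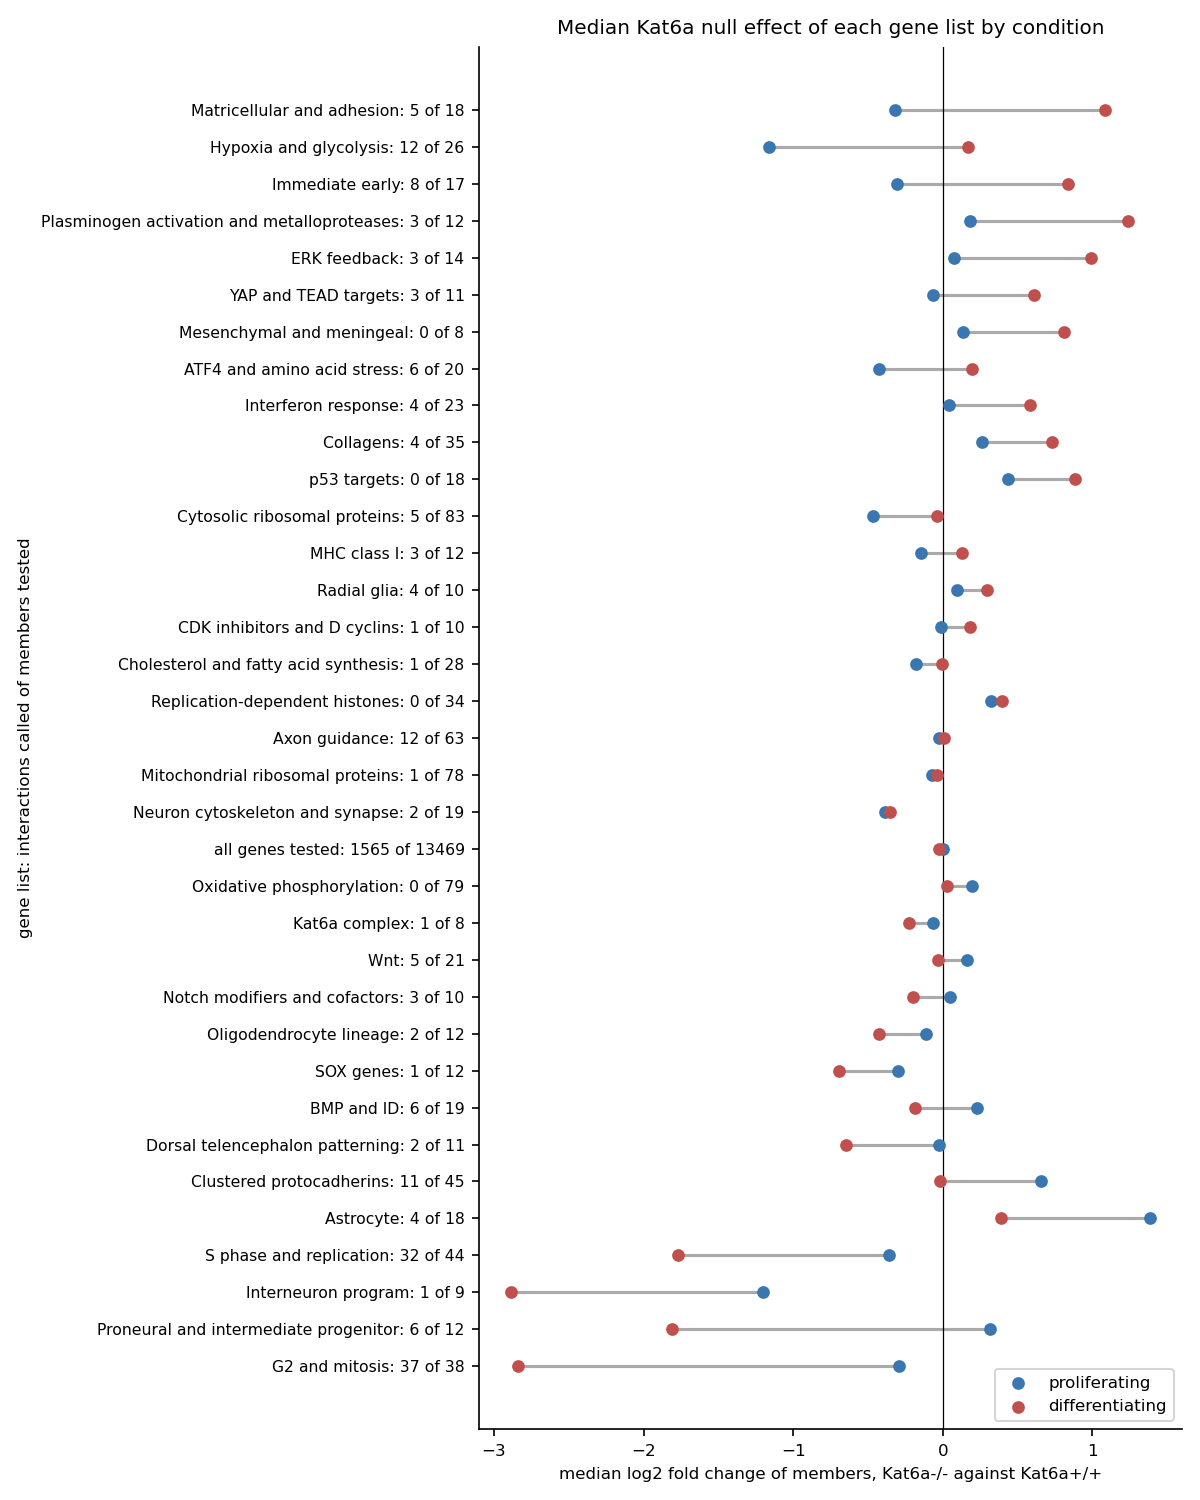
Median log2 fold change of Kat6a-/- against Kat6a+/+ NSPCs over the tested members of each gene list with at least 8 tested, in proliferating (blue) and differentiating (red) NSPCs, ordered by the difference. The labels give the called interactions, such as 37 of 38 for G2 and mitosis and 12 of 26 for hypoxia and glycolysis, against 1565 of 13469 for all genes.

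Other lists held few called interactions or none. None of the 79 oxidative phosphorylation genes, of the 34 replication-dependent histones (which are poorly captured as polyadenylated RNA) or of the 18 p53 target genes was called by limma-voom. At an unadjusted p under 0.05 there were 11, 3 and 5 of them, edgeR called 1, 2 and 3, and DESeq2 1, 2 and 5. Of the p53 targets, 13 rose in differentiating and 3 in proliferating Kat6a-/- NSPCs, and the interaction of Cdkn1a, the p53-induced inhibitor p21, was 1.60 (SE 0.55, FDR 0.070). Without differentiating Kat6a-/- replicate 2, 1 oxidative phosphorylation gene, 1 histone and 6 of the p53 targets were called. Of 78 mitochondrial ribosomal protein genes, 1 was called, and of 28 genes of cholesterol and fatty acid synthesis, 1. Without differentiating Kat6a-/- replicate 2 these numbers were 4 and 7. Dorsal telencephalon patterning genes were called at 2 of 11 and interneuron genes at 1 of 9, although 7 members of either list fell after differentiation. Leaving out 1 library gave 0 to 2 calls in each of these lists, and 2 in each without differentiating Kat6a-/- replicate 2. Emx2 fell in both conditions (-1.59, SE 0.22, and -1.05, SE 0.20) with no called difference between them (0.55, SE 0.31, FDR 0.26). The oligodendrocyte lineage list had 2 calls of 12, Olig1 and Olig2, both falls after differentiation. It had none in 6 of the 16 fits that left out 1 library, such as that without differentiating Kat6a+/+ replicate 1, and 4 without differentiating Kat6a-/- replicate 2, and Olig2 itself was called in 4 of these fits. YAP and TEAD target genes had 3 of 11, with positive interactions in Arhgap29 and Amotl2 and a negative one in Axl, and 6 without differentiating Kat6a-/- replicate 2.

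Markers of cells foreign to the culture were examined as well. Of 12 microglia and macrophage genes, 11 were under 1 CPM in all 16 libraries, and the one tested, P2ry12, was higher in proliferating Kat6a-/- NSPCs (6.12 to 8.31 against 1.17 to 1.39 CPM, interaction -2.97, SE 0.80, FDR 0.026). Of 8 endothelial genes, 6 were under 1 CPM throughout, and neither of the 2 tested was called by limma-voom, edgeR or DESeq2 (0 at an unadjusted p under 0.05). Their sum was 46.5 to 73.4 CPM in differentiating Kat6a+/+ and 10.7 to 36.8 CPM in Kat6a-/- libraries. Of 14 mesenchymal and meningeal genes, 5 were under 1 CPM throughout and none of 8 tested was called by limma-voom (1 at an unadjusted p under 0.05, 0 by edgeR, 1 by DESeq2, and 2 by limma-voom without differentiating Kat6a-/- replicate 2), while Col1a1 was at 174, 9.20, 140 and 99.4 CPM in differentiating Kat6a-/- against 2.10 to 16.3 CPM in Kat6a+/+ libraries. Of 4 choroid plexus genes tested, Kcnj13 was called (-2.83, SE 0.87, FDR 0.046), as it was in 3 of the 16 fits without 1 library. The part of such cells in the interactions was not tested.

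**Figure D5:**
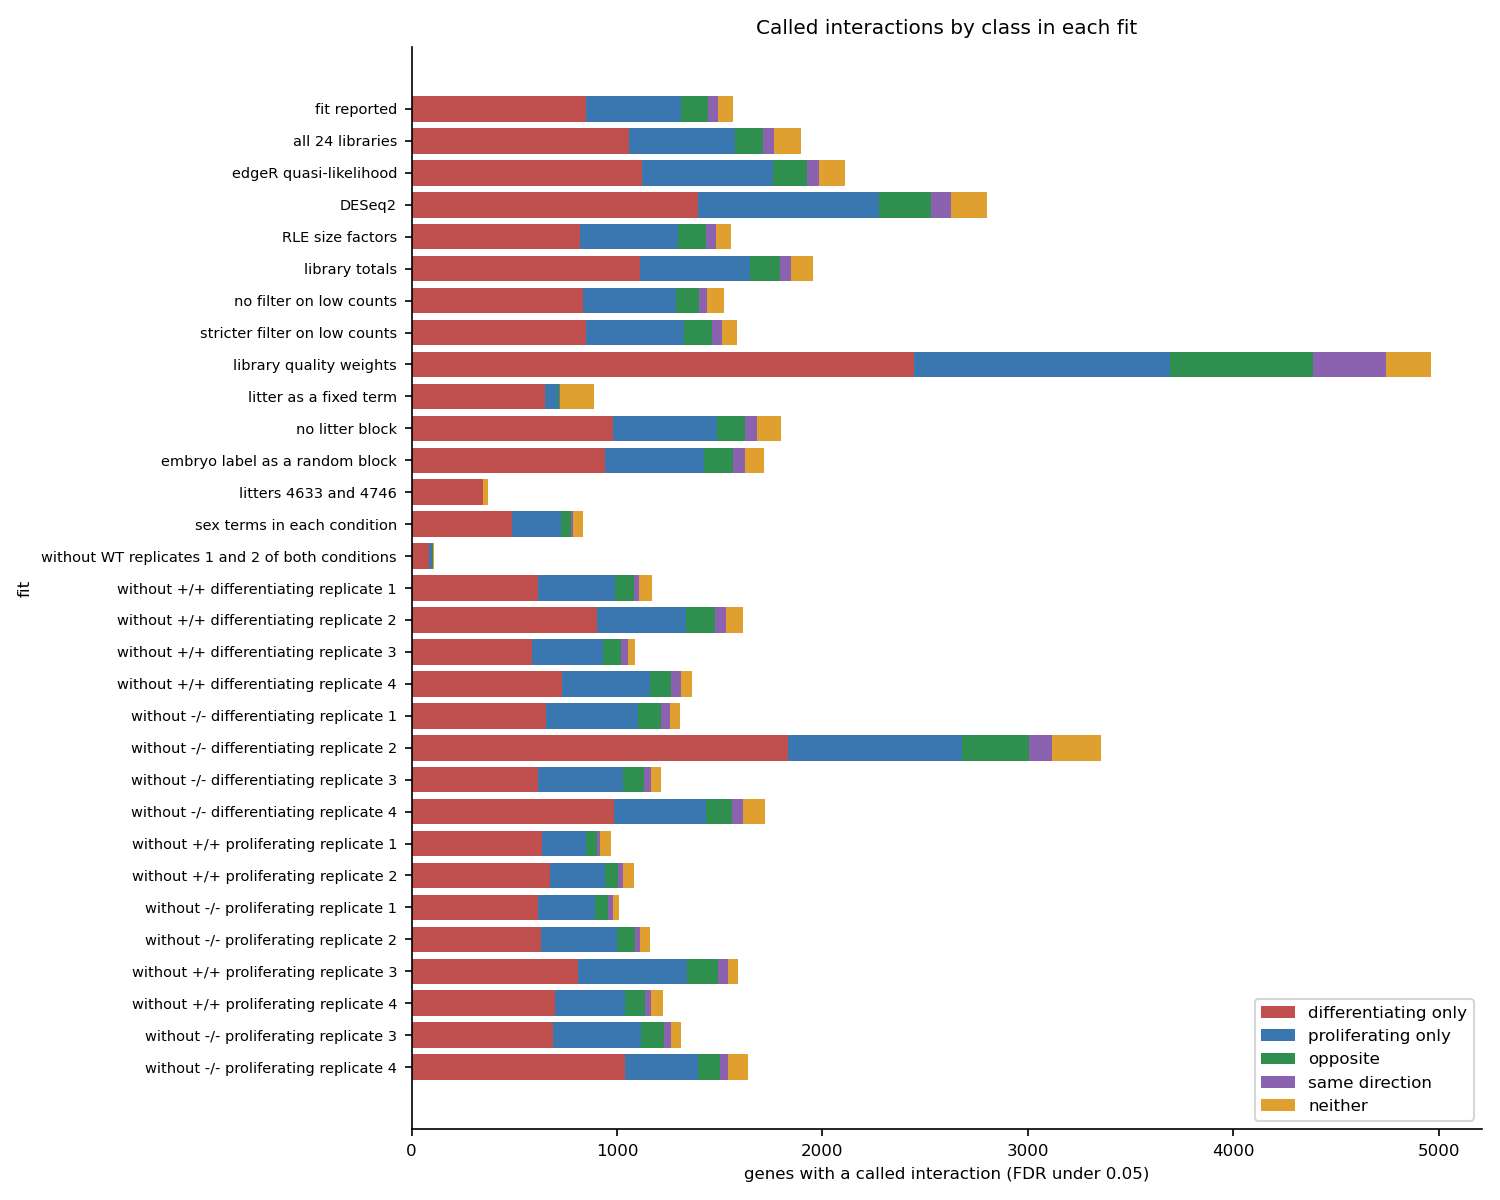
Genes with a called interaction (FDR under 0.05) in each fit that gave effects for both conditions, stacked by class. The top bar is the fit reported, with 1565 calls, and the bars below it run from 110 to 4962 calls as libraries, blocks, weights or tools change.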

How the data were processed

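RNA of 24 NSPC cultures was sequenced as stranded polyadenylated libraries, and 16 libraries were used here. The authors aligned reads to mm39 with Rsubread, summarised them to RefSeq genes with featureCounts and deposited raw counts per gene and library. Versions and the strand setting of the counting are not given in the sources used here, so overlapping and antisense genes may share reads. Groups came from the sample labels.

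Counts were fitted with limma-voom (limma 3.58.1, edgeR 4.0.16, R 4.3.3) after filtering of low counts (filterByExpr) and trimmed-mean scaling, with 4 group means, the litter as a random block (duplicateCorrelation) and robust empirical Bayes. The interaction was tested as a contrast with Benjamini-Hochberg adjustment at 0.05, and each condition's effect in the same model. DESeq2 1.42.0, edgeR's quasi-likelihood test, other scalings, filters and blocks, and leaving out each library were alternatives. The procedure was tested on simulated data. Nothing in the labels says that each library came from a separate culture beyond its embryo number, and p-values measure the spread between libraries.

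Among genes called in each of the 16 leave-one-out fits with mean log2 CPM above 0, those named are the 4 largest interactions of each sign in the differentiating-only and opposite classes, the 3 largest proliferating effects up and down, and the 2 largest of each sign in the same-direction class. Without these conditions, up to 4 members per gene list by interaction p, members needed for a list's roles, and Kat6a are named. The 40 lists, the comparison and its classes were chosen with earlier results of these data known. Coordinates are mm39 (GENCODE annotation, by symbol). RefSeq promoters (GRCm38.p6) were searched for CHR, CCAAT, E2F, RBPJ, AP-1, TEAD, SREBP and ISRE letters, and for HRE letters after the results were seen. Some genes are not reported here.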

Additional observations from a re-analysis of the deposited data

Results flagged for a closer look

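The effect of Kat6a loss differed between the conditions at 1565 genes by the interaction test, and at 129 of them both effects were called with opposite signs. The genes named from these are described above. Among 128 groups of 4 libraries examined, 10 held a library far from the other three by Dixon's criterion, which chance meets in about 1 in 20 groups. Proliferating Kat6a-/- replicate 4 correlated with the rest of its group at 0.981, next to 0.992 for the nearest library. In differentiating Kat6a+/+ NSPCs, replicate 2 was high in Ahnak2 (1.80 CPM, next 0.547) and Emp3 (2.18 CPM, next 0.673). Replicate 3 was high in Col9a1 (4.67 CPM, next 2.84) and Ccdc3 (214 CPM, next 182), and replicate 1 in Ppp1r3d (4.01 CPM, next 2.95). In differentiating Kat6a-/- NSPCs, replicate 4 was high in Insm1 (13.2 CPM, next 5.66) and Ccdc3 (166 CPM, next 115), and replicate 1 was low in Cadm2 (120 CPM, next 152). Sncb was at 0.202 CPM in proliferating Kat6a-/- replicate 4 and at 0 in the other three.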

How the results depend on the processing

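The number of called interactions was 2799 by DESeq2, 4962 with library quality weights, 889 with the litter as a fixed term, 833 with terms for sex, 374 within the 2 litters with both genotypes in both conditions, 110 without Kat6a+/+ replicates 1 and 2, and 0 in the fits of 5 embryos found in both conditions (1989 at an unadjusted p under 0.05) and of the 4 of 1 sex in both (757), where few libraries remain. The differentiating-only, proliferating-only, opposite and same-direction classes held 1392, 881, 253 and 99 genes by DESeq2, 2445, 1246, 698 and 354 with quality weights, 491, 235, 50 and 10 with terms for sex, 349, 0, 0 and 0 within the 2 litters, 87, 13, 5 and 0 without Kat6a+/+ replicates 1 and 2, and 456, 225, 84 and 25 at interactions over 1. With the litter fixed, the classes after the first held 59, 12 and 4. The cause was not tested. Leaving out each library gave 971 to 3358 calls and 584 to 1830, 212 to 848, 56 to 325 and 15 to 116 genes in the classes. Every highest count was without differentiating Kat6a-/- replicate 2, and the lowest were without proliferating Kat6a+/+ replicate 1, except differentiating only (differentiating Kat6a+/+ replicate 3). Calls were also 1010 without proliferating Kat6a-/- replicate 1. None of the 27 genes named by class or as the target (Kat6a) reversed. All but Kat6a had been chosen as called with the same sign in each leave-one-out fit. For them only the other fits could show a reversal. For Kat6a, a change of sign without a call was not counted as one. Ahnak2, Pcdhb6 and Ppp1r3d lost their call with the litter fixed and Ahnak2 and Tchh with terms for sex, and most of the 27 lost it in the small fits. Of the 8 same-numbered pairs of libraries across the conditions, 5 carried the same embryo label. The 8 pairs correlated at -0.16 to 0.16 in their deviations, and 2 were over 0.1. The numbers were not taken to pair the samples, although so few libraries cannot show that they are unpaired. In the fit reported, the correlation within litters was -0.093. With the embryo label as a random block, 1717 interactions were called. The replicate block gave 1661 calls. The fit without Kat6a+/+ replicates 1 and 2 and that of the 4 embryos were chosen after seeing the data.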
